A study of Caenorhabditis elegans with 2 samples.

Results

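The genes ftt-2 and par-5 encode the 14-3-3 proteins of the nematode Caenorhabditis elegans, and the binding of the zinc finger transcription factor PQM-1 around them was described from chromatin immunoprecipitation and sequencing. They are 2 of 19973 protein-coding genes annotated on the nuclear chromosomes. Both were chosen by their measured signal in earlier results of these data, so the ranks, signals and positions given here are a description and carry no test. Regions counted for a gene when their summit lay in the gene body or up to 2000 bp upstream of any of its transcript starts.

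The material was late embryos of strain OP201, genotype unc-119(tm4063) III; wgIs201, taken 2 h after synchronization by egg bleaching. The integrated transgene wgIs201 carries PQM-1 fused at its C terminus to GFP and FLAG, and chromatin of sonicated whole hermaphrodites was precipitated through the GFP tag. The genotype names no pqm-1 allele beside the transgene. The study holds 1 group of 2 biological replicates, so no groups could be compared. Whole embryos were used, so the cell types behind a signal cannot be told apart, and no precipitation without the tag is analysed here, so how much of the signal depends on tagged PQM-1 was not tested.

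14-3-3 proteins are small adaptors that bind partners phosphorylated on serine or threonine. In C. elegans they bind the FOXO factor DAF-16 after kinases of the insulin pathway have phosphorylated it, and help to keep it out of the nucleus. PAR-5 is also one of the PAR proteins that set up the anterior-posterior axis of the zygote. PQM-1 is known from the same pathway: it is nuclear in conditions that keep DAF-16 in the cytoplasm, and it is tied to the DAF-16 associated element TGATAAG.

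The genes are close relatives with separate surroundings. On build ce11, ftt-2 (WBGene00001502) lies on chromosome X from 11603708 to 11605419 and par-5 (WBGene00003920) on chromosome IV from 11820506 to 11821924, both on the minus strand. Each has a coding length of 744 bp, and the aligned coding sequences were 79.1% identical, with a longest identical run of 19 bp. The 430 bp regions described next shared no identical run over 10 bp on either strand. Upstream of ftt-2 the next protein-coding gene, F52D10.4, starts 12050 bp away and the ftt-2 window holds the non-coding RNA genes F52D10.7, F52D10.9, F52D10.11 and F52D10.12. Upstream of par-5 the divergent gene M117.3 starts after 281 bp.

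The sequence around the strongest summit of each gene is shown because it carries the main signal, and because the element tied to PQM-1 is not in it. Each run is 191 bases of the RefSeq genome WBcel235 (ce11), 5′ to 3′ on the gene's own minus strand, with the 21 bases centred on the pooled summit in capitals. The ftt-2 run is chrX:11605989-11606179 and the par-5 run is chrIV:11822014-11822204.
ftt-2: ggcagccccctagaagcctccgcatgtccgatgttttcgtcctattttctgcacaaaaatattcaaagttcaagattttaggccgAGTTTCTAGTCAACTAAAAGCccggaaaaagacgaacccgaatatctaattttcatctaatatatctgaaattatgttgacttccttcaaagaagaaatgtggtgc
par-5: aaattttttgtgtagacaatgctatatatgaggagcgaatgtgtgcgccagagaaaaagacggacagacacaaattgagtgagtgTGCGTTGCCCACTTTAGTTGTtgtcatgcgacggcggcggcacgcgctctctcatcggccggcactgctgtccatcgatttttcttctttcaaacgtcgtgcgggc

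GATA-type elements lay in a weaker second region of each gene, and none within 100 bp of the main summits. Each one shown was in the stretch where the main pooled region and the second region overlap. They are shown because they are the GATA-type matches in the windows of the second regions, in 5′ to 3′ runs of the same genome with the match in capitals. At ftt-2 a GATA site on the minus strand of chrX:11606272-11606299 was centred on the second summit and 201 bp from the first. At par-5 TGATAAG on the plus strand of chrIV:11822211-11822239 was 86 bp from the second summit and 116 bp from the first, in the 5' UTR of M117.3 and 16 bp from that gene's start.
ftt-2: tacattactcaAGATAAtttgaaggtaa
par-5: ttttgggcattTGATAAGaaaacacggga

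Region values are the authors' own peak signal, which is not scaled between lists, so each is given by its rank in its list and as a multiple of that list's median signal. The pooled list held 27694 regions, the list of replicate 1 held 28996 and that of replicate 2 held 23228. These are relaxed lists that include background. The authors' reproducible list equals the 669 strongest pooled regions. Read counts are not in these lists, so depth is unknown.

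The strongest ftt-2 region was among the strongest of the genome. It lay on X from 11605869 to 11606298 with its summit at 11606084, 665 bp upstream of the most upstream ftt-2 start and between genes. Its pooled signal of 193.8 was 7.05 times the list's median and ranked 43. In replicate 1 it had a signal of 73.4, 5.13 times the median, at rank 80. In replicate 2 it had a signal of 124.97, 6.82 times the median, at rank 28. The region was thus in the top 0.276% of the list of replicate 1 and the top 0.121% of that of replicate 2. Among the 135 reproducible regions on X it was number 4 by signal.

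The strongest par-5 region was reproducible but among the weaker regions of that list, whose median signal was 106 and lowest 82.0. It lay on IV from 11821894 to 11822323 with its summit at 11822109, between the divergent starts of par-5, 185 bp away, and M117.3, 97 bp away. Non-coding RNA genes M117.11 and M117.12 are annotated across the summit. Its pooled signal of 89.7 was 3.27 times the list's median and ranked 533. In replicate 1 it had a signal of 39.0, 2.73 times the median, at rank 647. In replicate 2 it had a signal of 50.3, 2.74 times the median, at rank 607. The multiple of the median was thus nearly the same in the replicates, below that of ftt-2 in each list. The replicate medians were taken over 28996 and 23228 regions, background included, so like multiples need not mean like enrichment. On IV it was number 77 of 104 reproducible regions.

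The authors' q-values, false discovery rates per region, put ftt-2 before par-5 except in replicate 2, where they tied. The ftt-2 region had a q of 0.0019 in the pooled list, 0.00205 in replicate 1 and 0.00465 in replicate 2, each the lowest value of its list and shared by 264, 244 and 753 regions. The par-5 region had a q of 0.00469 in the pooled list, 0.00541 in replicate 1 and 0.00465 in replicate 2. Only in replicate 2 did it share the lowest value with ftt-2.

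**Figure D1:**
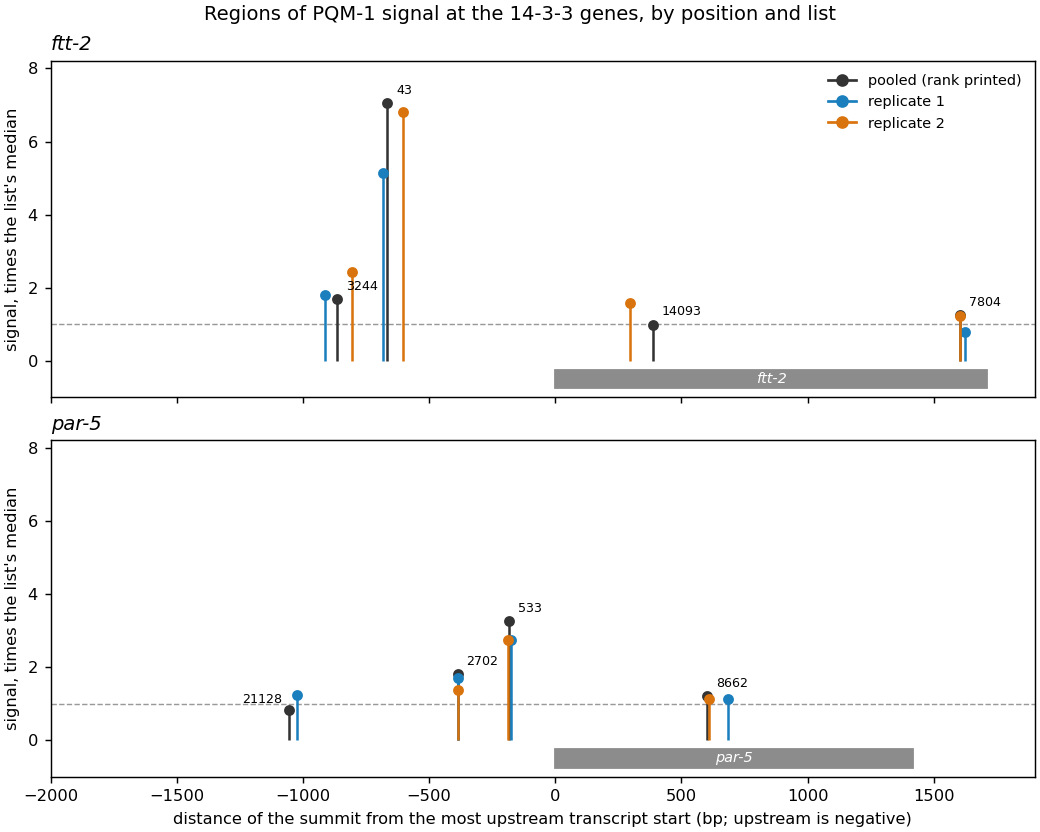
Summits of all ftt-2 (top) and par-5 (bottom) regions against distance from the gene's most upstream transcript start in bp, with height as signal in multiples of the list's median (dashed line at 1); colours mark the pooled list and each replicate, numbers give pooled ranks and grey bars the gene bodies. The main ftt-2 region stands at 5.13 to 7.05 times the median and that of par-5 at 2.73 to 3.27 times.

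Each gene had a second, weaker region overlapping the first on its upstream side. At ftt-2 its pooled summit was 201 bp further upstream, with a signal of 46.5 at rank 3244, 24.0% of the main region's. It ranked 2364 in replicate 1, with a q of 0.0641, and 821 in replicate 2, with a q of 0.00548 and its summit in an exon of F52D10.9. At par-5 it was 202 bp further upstream, in an intron of M117.3, with a pooled signal of 49.5 at rank 2702, 55.1% of the main region's. There it ranked 2972 in replicate 1, with a q of 0.0998, and 4647 in replicate 2, with a q of 0.279. Only the ftt-2 second region in replicate 2 had a q of at most 0.01.

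Such neighbours were common, and their spacing followed the lists. Of the 669 reproducible regions, 34.7% had another pooled summit within 250 bp, at a median spacing of 202 bp and a median signal of 34.7% of their own. No 2 neighbouring summits were closer than 199 bp in the pooled list or in either replicate's list, so the spacing of about 200 bp at ftt-2 and par-5 is that of the closest calls these lists hold.

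The remaining regions were weak, and 2 of them were missing from 1 replicate. In ftt-2, a region with its summit in the 3' UTR ranked 7804 in the pooled list, 23683 in replicate 1 and 6512 in replicate 2. Another, in a coding exon of ftt-2, ranked 14093 among pooled regions and 2947 in replicate 2, while replicate 1 had none there. In par-5, a region in the gene body ranked 8662 in the pooled list, 10569 in replicate 1 and 8214 in replicate 2. The other, 1055 bp upstream of par-5 in the 5' UTR of M117.3, ranked 21128 among pooled regions and 8446 in replicate 1, while replicate 2 had none there. The pooled q-values of these 4 regions were 0.491, 0.747, 0.537 and 0.889.

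In all, ftt-2 had 4 pooled regions, 3 in replicate 1 and 4 in replicate 2, and par-5 had 4, 4 and 3. The median over all protein-coding genes was 1 pooled region in the same kind of window. Per length, ftt-2 had 1.08 pooled regions per kb and par-5 1.17, against 0.297 per kb over the windows of all protein-coding genes. Both genes were chosen for a strong region, and 34.7% of reproducible regions had a pooled neighbour within 250 bp. Nothing is therefore read from this difference. All 4 pooled par-5 regions also lay in the window of M117.3. Further out, the flank of ftt-2 was nearly empty: after the summit 866 bp upstream of the start, the next pooled summit stood 18184 bp upstream, at rank 20214. In replicate 1 the next stood 3815 bp upstream, at rank 22932, and in replicate 2 17913 bp upstream, at rank 5282. At par-5 the next pooled summit beyond the reach stood 2444 bp upstream, at rank 13200, and the nearest one past the gene's end lay 1065 bp away, at rank 14610.

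Both genes had a reproducible region in the window, as did 838 of all 19973 protein-coding genes (4.20%). Both also had a pooled region with a q of at most 0.01, as did 7.21% of genes. Since the genes were chosen for this signal, nothing is read from these shares. In the pooled list 0.300% of genes, ftt-2 itself included, had a strongest region ranked at or above that of ftt-2. This share was 0.496% in replicate 1 and 0.22% in replicate 2. For par-5 the corresponding shares were 3.35%, 3.82% and 3.71%. The par-5 region lay in the windows of 2 protein-coding genes, and that of ftt-2 in the window of ftt-2 alone. Of the 669 reproducible summits, 51.0% lay in 1 such window and 26.5% in 2.

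The replicates placed the main summits with different precision. At ftt-2 the summits of replicate 1 (11606102) and replicate 2 (11606024) were 78 bp apart, with the pooled summit between them. At par-5 they were 9 bp apart, at 11822101 and 11822110. Over 668 reproducible regions found in both replicates the median distance was 26 bp, and 13.3% of them had replicate summits further apart than those of ftt-2.

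The main regions also differed in their distance from a protein-coding start. Among the 430 reproducible summits that lay up to 2000 bp upstream of their nearest protein-coding start, the median distance was 271.5 bp. The ftt-2 summit, at 665 bp, was further out than most: 24.0% of these summits were as far or further. Starts of non-coding genes were not counted. The same ftt-2 summit lay 95 bp upstream of the start of the non-coding RNA gene F52D10.7, and the replicate summits 113 and 35 bp upstream of it. The par-5 summit, at 97 bp from M117.3, was nearer than most, with 86.0% as far or further. Measured to par-5 itself the distance was 185 bp.

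**Figure D2:**
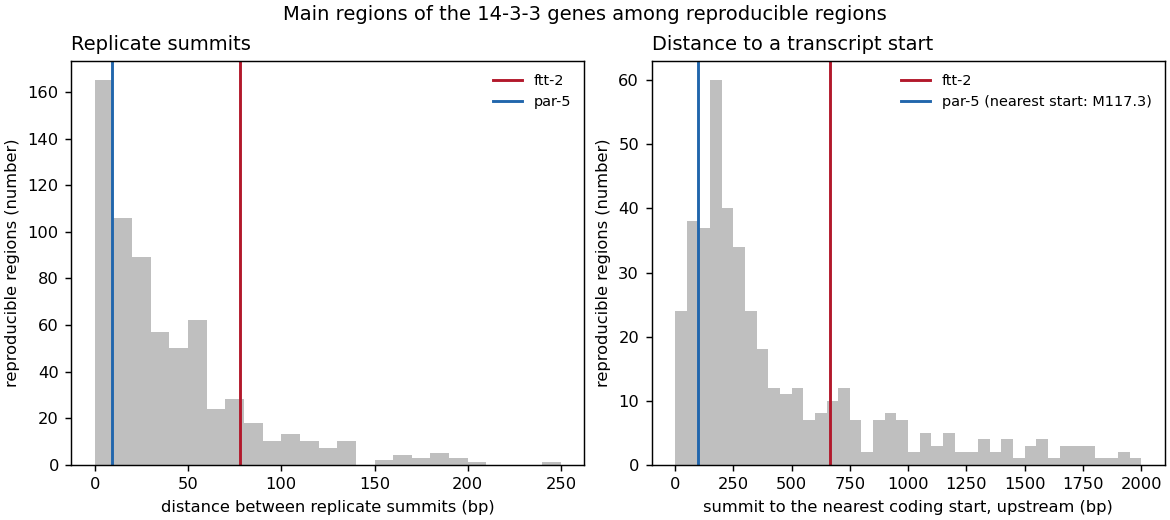
Histograms of reproducible regions: the 668 found in both replicates by the distance in bp between the summits of replicate 1 and replicate 2 (left), and the 430 with a summit up to 2000 bp upstream of their nearest protein-coding transcript start by that distance in bp (right), with vertical lines for the main regions of ftt-2 and par-5. The ftt-2 line stands at 78 and 665 bp, to the right of most regions plotted, and the par-5 line at 9 and 97 bp, to the left of most.

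Sequence elements were searched on both strands within 100 bp of each summit. They were TGATAAG, the GATA site (GATA with T or A before it and A or G after it, which every TGATAAG also matches), the FOXO site GTAAACA, the E-box CACGTG, GAGAGAGA, the heat shock element TTCNNGAA and the T-block TTTTTTT. The main windows of ftt-2 and par-5 held none of these 7, in the pooled list or in either replicate's list. Of all 669 reproducible windows, 37.5% held none, 10.0% held TGATAAG, 34.98% a GATA site, 2.84% GTAAACA, 7.03% CACGTG, 12.1% GAGAGAGA, 8.52% TTCNNGAA and 21.1% TTTTTTT. Of windows of the same length directly upstream of protein-coding starts, 24.8% held none and 7.11% held TGATAAG. For the remaining elements the shares there were 42.8% for the GATA site, 3.48% for GTAAACA, 4.23% for CACGTG, 2.73% for GAGAGAGA, 12.03% for TTCNNGAA and 43.4% for TTTTTTT.

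The second regions held elements, as did most pooled windows: 37.6% of all 27694 held none of the 7, 6.03% held TGATAAG, 34.6% a GATA site, 10.6% TTCNNGAA and 28.1% TTTTTTT. At ftt-2 the site printed above, AGATAA, was in the window of the second region in the pooled list and in both replicates, and TTCNNGAA was in that of replicate 1. At par-5 the window of the second region held TGATAAG, TTCNNGAA and TTTTTTT in the pooled list and in both replicates. Another copy of TGATAAG was 83 bp from the summit of the upstream par-5 region that replicate 1 ranked 8446. Within 200 bp of the main summit, par-5 had the TGATAAG printed above in all 3 lists. There ftt-2 had no match in the pooled list or replicate 2 and the GATA site at 183 bp in replicate 1. The par-5 match is 1 genomic site seen from the summit of each list, and no background share was taken for these longer windows. The GC content of the main window was 39.8% at ftt-2 and 49.3% at par-5, against a median of 45.8% over reproducible windows, with quartiles at 40.3% and 50.7%.

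The other genes of the insulin to FOXO pathway were looked at by the same rule, in a list of 20 that holds ftt-2 and par-5. Without these 2, 4 of 18 had a reproducible region and 6 of 18 a pooled region with a q of at most 0.01, against 4.20% and 7.21% of all protein-coding genes. Their strongest pooled regions had a median rank of 1595 among the 15 that had one, against 8399.5 over the 13136 protein-coding genes with a region. Neither these counts nor the median ranks were matched for window length. The longer window of a long gene has more room for a strong region. The list was also chosen with earlier results of these data known, so nothing is read from these differences. The 4 with a reproducible region were the kinase gene pdk-1 at rank 205, the phosphatase subunit gene pptr-1 at 217, the DAF-16 coregulator gene smk-1 at 326 and the PI3 kinase adaptor gene aap-1 at 594. The replicates differed for aap-1, which ranked 231 in replicate 1 and 1724 in replicate 2, and by the 669 strongest regions of replicate 2 alone the count was 3 of 18. The summits of the 4 genes lay 1322 to 1645 bp upstream of their gene. When the reach was 1000 bp, none of the 18 had a reproducible region, against 3.41% of all protein-coding genes, so this 0 lies near the background share. The regions of ftt-2 and par-5 lie within that reach.

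Sharing differed within the pathway. The summits of pdk-1 (X, 1319911), 1433 bp upstream, and pptr-1 (V, 16356074), 1447 bp upstream, lay in no other protein-coding gene's window. That of smk-1 (V, 8606478) was 350 bp from the start of vps-60, and that of aap-1 (I, 5106198) was 6 bp from the start of use-1. With a q of at most 0.01 came akt-2, an AKT kinase gene, at rank 1003, and math-33, which encodes a deubiquitinase of DAF-16, at rank 855. The math-33 summit was nearer to the start of erfa-3, at 270 bp. Only ftt-2, of all listed pathway genes, ranked within the first 100 in the pooled list and in each replicate.

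Several other pathway genes ranked below both ftt-2 and par-5. The insulin receptor gene daf-2 had its strongest pooled region in an intron at rank 1595 with a signal of 59.6, and daf-16, which encodes the FOXO factor that 14-3-3 proteins bind, also in an intron at rank 1594 with a signal of 59.6. Their q-values were both 0.0191. In replicate 1 and replicate 2 daf-2 ranked 1089 and 1291 and daf-16 ranked 2502 and 934. The sirtuin gene sir-2.1 ranked 2944 and the AKT kinase gene akt-1 2842 in the pooled list. No pooled region lay in the windows of age-1, cst-1 and pqm-1 itself, and of these 3 only age-1 had a region in a replicate, at rank 17072 in replicate 2.

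**Figure D3:**
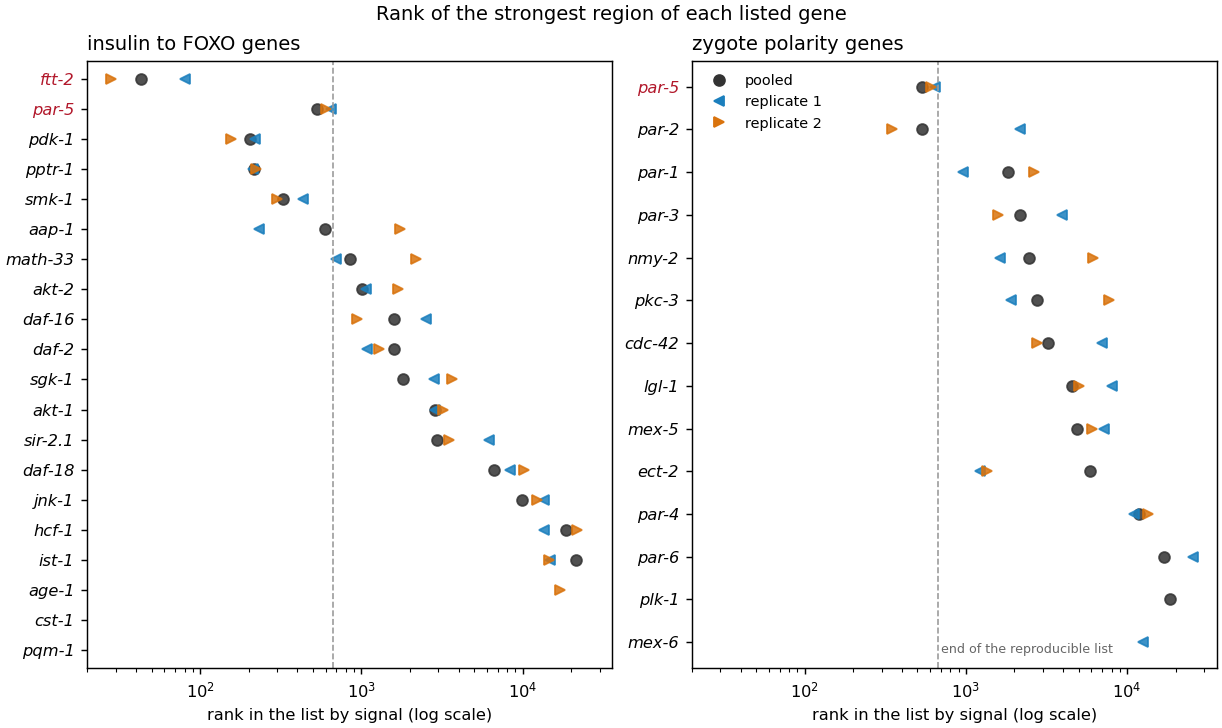
Rank of the strongest region of each gene by signal on a log scale, with circles for the pooled list and triangles for replicates 1 and 2, for 20 insulin to FOXO genes (left) and 14 of the zygote polarity genes (right), with ftt-2 and par-5 in red at the top; the dashed line is the end of the reproducible list at rank 669, and a gene without a symbol has no region. ftt-2 and par-5 stand left of the line in all 3 lists.

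Among the genes of zygote polarity, a list of 15 that holds par-5, 1 of the other 14 (7.14%) had a reproducible region and 2 (14.3%) had a pooled region with a q of at most 0.01, against 4.20% and 7.21% of all protein-coding genes. Counts this small lie near those shares. The first was par-2, whose RING protein marks the posterior cortex, at rank 531 next to par-5 at rank 533. Unlike par-5, it had a q above 0.01 in replicate 1, where it ranked 2173 with a q of 0.0532, and it ranked 349 in replicate 2. Its summit (III, 1080777) was 2 bp from the start of rab-18 and 624 bp upstream of par-2. Over the 13 others with a pooled region the median rank of the strongest was 3212, against 8399.5 over all protein-coding genes with one. Here too window length was not matched, so nothing is read from this difference. The other PAR genes, par-1, par-3, par-4 and par-6, ranked 1813, 2154, 11801 and 16875.

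The genes most like each member were named by the smallest sum of absolute differences in log10 rank of the strongest region over the 3 lists, among 6018 genes with a symbol and a region in each. For ftt-2 these were cid-1, emb-1 and prp-19, with a sum of 0.134. They share 1 region, at rank 40 among pooled regions, 81 in replicate 1 and 35 in replicate 2. For par-5 they were pdi-3 and ubql-1, which share a region at ranks 536, 659 and 624 (sum 0.0224), and ets-4, at ranks 556, 639 and 694 (sum 0.0819). The measure rests on 2 replicates and their pool, which are not independent.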

How the data were processed

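PQM-1 binding was measured in 2 biological replicates; regions come from each and from their pool. The authors deposited peak lists in builds ce10 and ce11. Each region has the authors' signal value and the authors' −log10 q-value, per the deposited file columns, and an unset p-value. Per the deposited README text, the authors called each replicate, and both together, against a control file, and made the reproducible list by irreproducible discovery rate. The peak caller is not given in the sources used here, nor are the aligner and threshold. Only the 4 ce11 lists were used, since the supplied genome and Ensembl release 115 annotation are WBcel235 (ce11); no region ended beyond a chromosome. The ce10 lists were not used here.

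Regions were ranked by signal within each list. A pooled region was found in a replicate when its summit lay in a region of that replicate. Members, lists and elements were chosen with earlier results of these data known, and no test was run. Named genes were ftt-2, par-5, genes within 2000 bp of their regions, listed genes with a reproducible region or among the 3 strongest, daf-16, daf-2, pqm-1 and the 3 most alike genes; further listed genes were named after their values were seen, and a polarity gene is not reported here. Alternatives were other reaches, thresholds, windows, overlaps and each replicate alone. The coding sequences were compared as nucleotides (Biopython global alignment), since no protein table was used. Biopython 1.88, Python 3.11.15, numpy 2.4.6 and matplotlib 3.10.9 were used; window and element searches were tested on simulated data.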

Additional observations from a re-analysis of the deposited data

How the results depend on the processing

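Both genes had a region past the threshold with the reproducible list, with a pooled q of at most 0.01 or 0.05, with a reach of 1000 bp, and with the 669 strongest regions of either replicate alone, while the stronger 50% of the reproducible list held ftt-2 and not par-5. The rank of the strongest ftt-2 region, 43, was 28 to 80 with 1 replicate left out, and 1 by q-value, a value tied over 264 regions. That of par-5, 533, was 607 to 647, and 501 by q-value. The number of elements at the main par-5 summit, 0, became 2 within 200 bp, a single TGATAAG counted also as a GATA site. With a q of at most 0.01, 1440 genes had a region in place of 838, and with the stronger 50% of the reproducible list 424. With a reach of 1000 bp the listed insulin to FOXO genes with a reproducible region were 2 in place of 6, namely ftt-2 and par-5. Depth is unknown, and the spread of a rank rests on 2 replicates.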
